A study of Mus musculus with 6 samples.

Results

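Mouse genes that still carry a provisional name were compared between MLL4SET-MKO and WT gastrocnemius. A gene belonged to the set when its row was tested by the authors and its only symbol was Gm followed by digits or ended in Rik. Of 13347 tested rows, 562 met this rule. They comprised 121 Gm rows and 441 Rik rows, with 558 distinct symbols because 4 rows repeat a symbol. Another 11714 tested rows carried at least 1 gene with a different kind of name, some beside further symbols. The tested set is a small part of all such genes in the table, which holds 3118 Gm and Rik rows. The authors left 2555 of these untested, 1586 of them listed at 0 in both groups and none above a mean of 0.418 FPKM. The estimate of 1 row, A930016O22Rik, had failed.

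The MLL4SET-MKO group held 3 libraries from mice with a knock-out, restricted to muscle, of the SET domain of MLL4. The WT group held 3 libraries from wild-type mice. All 6 libraries came from gastrocnemius, a mixed calf muscle of mostly fast fibres, of C57BL/6J mice aged 8 weeks, and the labels call those of a group biological replicates. The sources used here do not name the promoter or Cre line behind the deletion, nor any allele that the WT mice carry. The authors summarised the libraries of each group in 1 FPKM, which is the number of fragments scaled to transcript length and to library size, so the spread between mice cannot be shown and the read depth is unknown. Called, below, means a q under 0.05 in the authors' deposited table.

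Gm symbols are given by mouse genome curators to predicted genes, and Rik symbols to genes first seen as full-length cDNA clones of the RIKEN collection. Both are placeholders, so the set mixes conserved proteins that have since received a proper name with long non-coding RNAs and pseudogenes. Many long non-coding RNAs start beside the promoter of a protein-coding gene and are read away from it, or lie antisense over it. MLL4, encoded by Kmt2d, adds mono-methyl marks to histone H3 lysine 4 mainly at enhancers, and its SET domain holds the catalytic activity. Enhancers themselves can be transcribed into non-coding RNA.

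The promoters of the members with the largest called changes are shown, because the symbols of these genes carry no description. Each window runs from 250 bases before to 50 bases after the gene's start, is taken from RefSeq on GRCm38.p6, and is written 5' to 3' on the strand of the gene. The first 3 belong to the largest increases and the next 3 to the largest decreases in MLL4SET-MKO. The last pair belongs to 2310065F04Rik, in the myosin heavy chain cluster, and to Actc1, the named neighbour of C130080G10Rik. Capitals mark a MEF2 motif, CAGCTG or TATAAA, searched on both strands.
C130080G10Rik: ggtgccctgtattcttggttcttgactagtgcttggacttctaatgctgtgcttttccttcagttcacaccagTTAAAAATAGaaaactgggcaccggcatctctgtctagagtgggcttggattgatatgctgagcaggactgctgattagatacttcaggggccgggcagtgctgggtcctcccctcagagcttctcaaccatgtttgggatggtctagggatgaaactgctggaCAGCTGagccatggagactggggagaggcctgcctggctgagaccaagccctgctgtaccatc
A930003A15Rik: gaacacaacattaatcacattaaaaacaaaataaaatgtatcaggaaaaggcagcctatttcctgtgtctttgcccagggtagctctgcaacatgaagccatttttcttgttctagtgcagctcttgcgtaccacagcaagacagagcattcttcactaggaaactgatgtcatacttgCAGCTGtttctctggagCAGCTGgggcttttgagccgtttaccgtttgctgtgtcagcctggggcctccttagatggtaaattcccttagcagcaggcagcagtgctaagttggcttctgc
D430041D05Rik: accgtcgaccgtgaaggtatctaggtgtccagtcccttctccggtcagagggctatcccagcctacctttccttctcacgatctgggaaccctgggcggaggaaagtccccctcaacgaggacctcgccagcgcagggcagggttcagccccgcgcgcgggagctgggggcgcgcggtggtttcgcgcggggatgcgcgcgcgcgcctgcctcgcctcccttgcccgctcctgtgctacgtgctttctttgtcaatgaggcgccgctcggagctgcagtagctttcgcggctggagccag
6430548M08Rik: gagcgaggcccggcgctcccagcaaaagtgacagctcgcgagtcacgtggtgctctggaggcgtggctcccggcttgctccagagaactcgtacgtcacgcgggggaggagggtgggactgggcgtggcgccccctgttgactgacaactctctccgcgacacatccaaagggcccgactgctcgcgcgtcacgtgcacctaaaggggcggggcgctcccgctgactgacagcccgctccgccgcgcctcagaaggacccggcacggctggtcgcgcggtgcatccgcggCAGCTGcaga
3110009E18Rik: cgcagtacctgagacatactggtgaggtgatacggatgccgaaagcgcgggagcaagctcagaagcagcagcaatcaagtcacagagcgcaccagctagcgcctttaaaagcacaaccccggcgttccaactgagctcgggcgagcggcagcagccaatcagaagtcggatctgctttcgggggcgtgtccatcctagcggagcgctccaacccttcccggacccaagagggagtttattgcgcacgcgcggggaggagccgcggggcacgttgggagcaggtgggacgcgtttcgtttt
9530020I12Rik: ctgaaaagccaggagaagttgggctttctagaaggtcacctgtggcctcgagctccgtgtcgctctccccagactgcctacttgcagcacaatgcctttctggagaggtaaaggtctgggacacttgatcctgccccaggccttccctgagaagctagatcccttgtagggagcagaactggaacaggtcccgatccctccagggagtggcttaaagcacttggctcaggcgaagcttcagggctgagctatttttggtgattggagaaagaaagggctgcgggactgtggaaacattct
2310065F04Rik: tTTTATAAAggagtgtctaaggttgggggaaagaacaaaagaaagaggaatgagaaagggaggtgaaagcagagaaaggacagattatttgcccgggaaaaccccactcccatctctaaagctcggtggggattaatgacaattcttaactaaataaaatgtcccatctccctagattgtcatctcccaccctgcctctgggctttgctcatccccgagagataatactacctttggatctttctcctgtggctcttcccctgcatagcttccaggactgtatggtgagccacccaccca
Actc1: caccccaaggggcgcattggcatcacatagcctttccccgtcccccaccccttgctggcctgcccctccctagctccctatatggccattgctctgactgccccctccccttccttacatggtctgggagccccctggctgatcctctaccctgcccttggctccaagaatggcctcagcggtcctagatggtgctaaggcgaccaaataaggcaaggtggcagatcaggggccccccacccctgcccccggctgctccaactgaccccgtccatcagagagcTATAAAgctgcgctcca

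The windows are C130080G10Rik at chr2:114054146-114054445 (plus strand), A930003A15Rik at chr16:19884225-19884524 (minus strand), D430041D05Rik at chr2:104410562-104410861 (minus strand), 6430548M08Rik at chr8:120113902-120114201 (plus strand), 3110009E18Rik at chr1:120120937-120121236 (plus strand), 9530020I12Rik at chr12:11204453-11204752 (minus strand), 2310065F04Rik at chr11:67120031-67120330 (minus strand) and Actc1 at chr2:114052826-114053125 (minus strand). The window of C130080G10Rik held a MEF2 motif 177 bases before the start and a CAGCTG, a core bound by muscle basic helix-loop-helix factors, 13 bases before it. That of A930003A15Rik held CAGCTG at 71 and at 54 bases before the start, and that of 6430548M08Rik held it 41 bases after the start. In 2310065F04Rik the 2 matches to TATAAA overlapped on opposite strands, at the far upstream end. The windows of D430041D05Rik, 3110009E18Rik and 9530020I12Rik held none of these letters. The GC content was 67.0% in D430041D05Rik, 69.7% in 6430548M08Rik and 61.3% in 3110009E18Rik, all protein-coding, against a median of 52.7% over all 32851 windows of the RefSeq table.

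Of the members, 441 had a promoter in that table. A member counted as a carrier when any of its windows held the motif, while shares of all windows count single windows. These shares are therefore in different units. CAGCTG was present in 84 of them, 7 of 21 that were called higher and 7 of 19 called lower, and in 16.3% of all windows. The MEF2 motif was present in 16 of the 441, against 3.19% of all windows. The 3 carriers called higher were C130080G10Rik, Gm19299 and Gm5532, and the carrier called lower was 2310002L09Rik. TATAAA was present in 33 of the 441, in 4 of the 21 called higher and 2 of the 19 called lower, against 13.6% of all windows. A match describes letters in the window and is not a measured binding site.

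Calls among Gm and Rik genes ran in both directions. In MLL4SET-MKO muscle 30 members rose and 27 fell, which is 57 of 562, or 10.1%, while 11.8% of all tested rows were called. By direction, 5.34% of members were called higher and 4.80% lower, against 4.44% and 7.41% of all tested rows. The 11714 rows with a named gene had 4.05% called higher and 7.50% lower, and the 1068 tested rows without a symbol had 8.15% and 7.87%. With the authors' statistic read as a plain normal deviate, a stricter reading, 3.39% of members and 3.11% of all rows passed. A change of at least 2-fold was reached by 1.96% of members and 1.60% of all tested rows. Increases therefore made up 52.6% of the calls among members and 37.4% of the calls over all tested rows. The difference between these shares was not tested. The median change, log2((MLL4SET-MKO FPKM + 1)/(WT FPKM + 1)), was 0.00 over members and -0.02 over all tested rows, and the middle part of the members, from the lower to the upper quartile, lay between -0.16 and 0.16. Summed over members, the level was 5662 FPKM in MLL4SET-MKO and 5603 FPKM in WT, which was 1.29% and 1.26% of the tested total.

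Most members were expressed at low levels. Their median of the mean FPKM was 2.04, against 5.47 over all tested rows, and 172 members lay under 1 FPKM. A standard error of each log2 ratio, which has no pseudocount, was worked back from the authors' test statistic. Its median was 0.27 over members and 0.16 over all tested rows, and within the set it was 0.51 under 1 FPKM and 0.14 from 20 FPKM upward. Called members were 10 of 172 under 1 FPKM (5.81%, against 11.2% of all tested rows at that level) and 28 of 218 between 1 and 5 FPKM (12.8%, against 9.90%). From 5 to 20 FPKM 14 of 120 were called (11.7%, against 11.7%), and from 20 FPKM upward 5 of 52 (9.62%, against 15.4%).

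**Figure D1:**
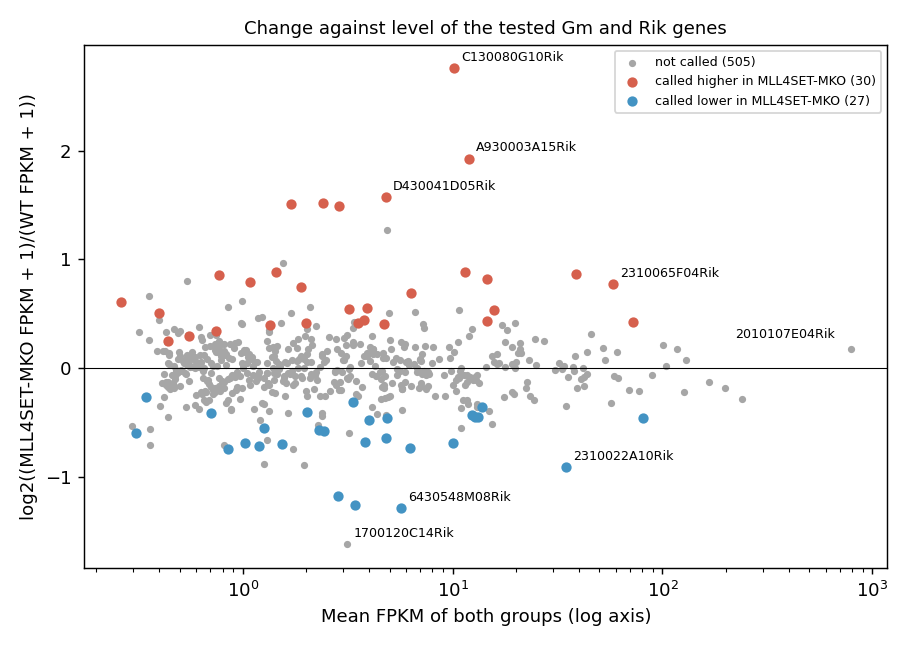
Change of each of the 562 Gm and Rik genes, as log2((MLL4SET-MKO FPKM + 1)/(WT FPKM + 1)), against its mean FPKM of both groups on a log axis. Red points are the 30 called higher in MLL4SET-MKO, blue points the 27 called lower and grey points the 505 not called; C130080G10Rik stands highest at 2.76, and the most abundant member, 2010107E04Rik, is not called.

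Among called members, the 2 largest increases, and 6 of the 12 largest, were in long non-coding RNAs. Long non-coding RNAs made up 273 of all 562 members. C130080G10Rik had 18.4 FPKM in MLL4SET-MKO and 1.88 FPKM in WT, a log2 ratio of 3.30 with a 95% interval of 2.92 to 3.67. A930003A15Rik had 19.5 FPKM in MLL4SET-MKO and 4.40 FPKM in WT, a log2 ratio of 2.15 (1.78 to 2.52). Both are annotated as long non-coding by RefSeq, and both intervals lie above a 2-fold difference. 4930556M19Rik, another long non-coding RNA, had 2.99 FPKM in MLL4SET-MKO and 0.403 FPKM in WT, with a log2 ratio of 2.89 (2.24 to 3.55). Gm19299 had 4.71 FPKM in MLL4SET-MKO and 1.03 FPKM in WT, with a log2 ratio of 2.19 (1.74 to 2.65). The lower WT levels of these RNAs make their changes on the scale with a pseudocount, 1.51 and 1.49, smaller than the ratios. The list of the 12 largest increases also holds the long non-coding 2810032G03Rik, with 1.28 FPKM in MLL4SET-MKO and 0.258 FPKM in WT, and E030003E18Rik, with 18.8 FPKM in MLL4SET-MKO and 10.2 FPKM in WT. E030003E18Rik shares its locus with C730002L08Rik, so reads of that pair can overlap.

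The other 6 of the 12 largest called increases are annotated as protein-coding. D430041D05Rik had 7.66 FPKM in MLL4SET-MKO and 1.92 FPKM in WT, a log2 change of 1.57 with the pseudocount, and without it a log2 ratio with an interval of 1.69 to 2.31. 4933415F23Rik, now named Ppp1r14bl and by its name related to a phosphatase inhibitor, had 4.03 FPKM in MLL4SET-MKO and 0.759 FPKM in WT, a log2 ratio of 2.41 (1.90 to 2.92). E130012A19Rik, now Epop, an elongin B/C and Polycomb repressive complex 2 associated protein, had 2.16 FPKM in MLL4SET-MKO and 0.710 FPKM in WT. Each of these stayed at a few FPKM even in the group where it was higher. 1700056E22Rik, which lies antisense to Dusp10, had 1.65 FPKM in MLL4SET-MKO and 0.524 FPKM in WT, with q = 0.0382 in the authors' deposited table.

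The remaining pair of the 12, F830016B08Rik and Gm4841, were abundant and lie next to each other on chromosome 18. RefSeq gives them the synonyms Ifgga4 and Ifgga3, which belong to the interferon-inducible GTPases, enzymes that act against intracellular pathogens. F830016B08Rik had 50.4 FPKM in MLL4SET-MKO and 27.2 FPKM in WT, a log2 ratio of 0.89 (0.62 to 1.16). Gm4841 had 15.1 FPKM in MLL4SET-MKO and 7.70 FPKM in WT, a log2 ratio of 0.97 (0.69 to 1.25). Another member with such a synonym, Gm12185 (Irgb2b1), had 0.565 FPKM in MLL4SET-MKO and 0.311 FPKM in WT and was also called higher. It did not pass with the normal deviate, and it overlaps other genes on its strand. Its nearest named row, that of 9930111J21Rik1, 9930111J21Rik2 and Psme2b, had 1.04 FPKM in MLL4SET-MKO and 1.06 FPKM in WT and was not called. The 3 members with such synonyms were grouped after their values had been seen, and near-identical copies of this family can share reads. Iigp1, the named GTPase nearest to the chromosome 18 pair, had 4.60 FPKM in MLL4SET-MKO and 4.50 FPKM in WT, with q = 0.96 in the authors' deposited table.

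Among cell type markers, 5 of 7 macrophage genes were called higher and none lower. They summed to 148 FPKM in MLL4SET-MKO and 91.7 FPKM in WT, with single markers between 2.61 and 77.3 FPKM in MLL4SET-MKO and between 1.99 and 43.2 FPKM in WT. No lymphocyte marker was among the tested rows. All 5 slow fibre markers were called lower and summed to 140 FPKM in MLL4SET-MKO and 655 FPKM in WT, while 5 fast fibre markers summed to 28682 FPKM in MLL4SET-MKO and 32046 FPKM in WT, with 1 called lower. The part of these shifts in any change of a Gm or Rik gene was not tested. In whole muscle, fewer cells of a type and less RNA per cell cannot be told apart. Of 2 satellite cell markers 1 was called lower, Myf5, a myogenic transcription factor, with 0.789 FPKM in MLL4SET-MKO and 1.46 FPKM in WT. Markers of endothelial cells, fibroblasts, Schwann cells, adipocytes and red cells held no called gene.

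**Figure D2:**
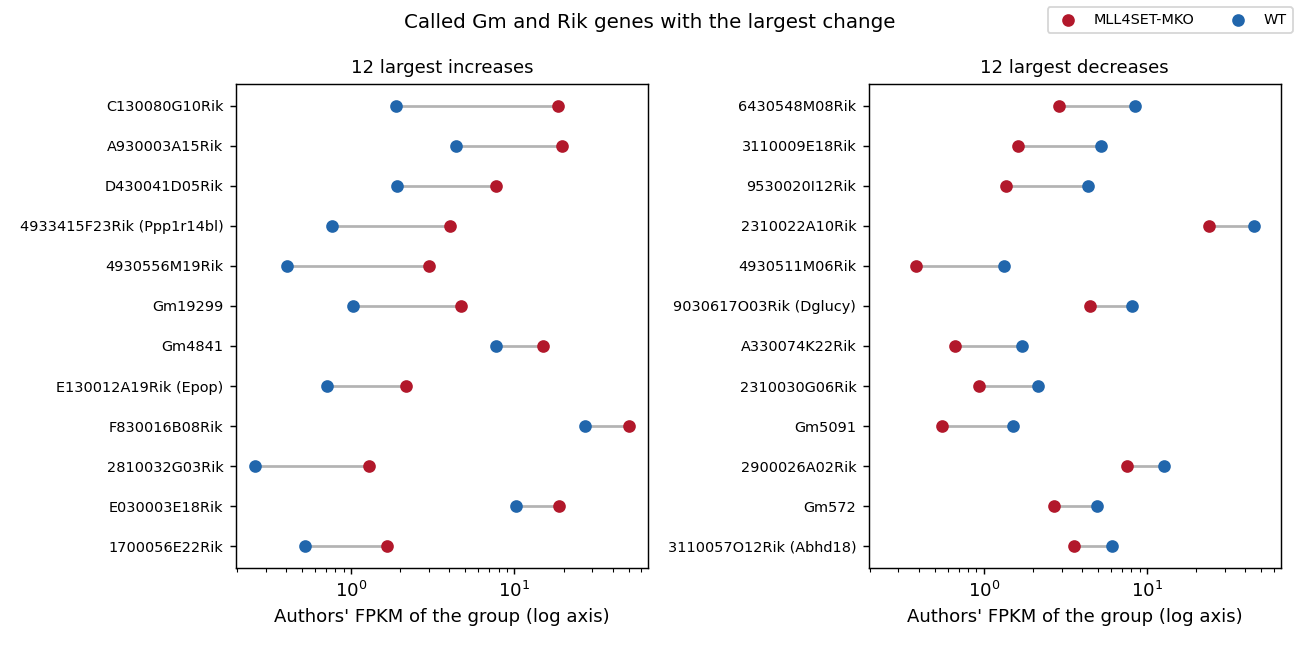
FPKM of the group, as given by the authors, on a log axis for the 12 called members with the largest increase (left) and the 12 with the largest decrease (right) in MLL4SET-MKO. Red points are MLL4SET-MKO and blue points WT; the widest gap on the left belongs to C130080G10Rik (18.4 and 1.88 FPKM) and the decreases start with 6430548M08Rik (2.87 and 8.44 FPKM).

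Of the 12 largest called decreases 8 were in protein-coding genes, which made up 261 of all 562 members. Their median standard error was 0.18, against 0.42 for long non-coding members, and a smaller error makes a call easier to reach. The uncalled 1700120C14Rik, described below, had a larger decrease than any of the 12. 6430548M08Rik, for which RefSeq lists the synonym Kiaa0513, had 2.87 FPKM in MLL4SET-MKO and 8.44 FPKM in WT, a log2 ratio of -1.56 (-1.84 to -1.27). 3110009E18Rik had 1.62 FPKM in MLL4SET-MKO and 5.24 FPKM in WT, and its ratio of -1.70 was imprecise (-2.56 to -0.84). 2310022A10Rik was the most abundant of the 12, with 23.8 FPKM in MLL4SET-MKO and 45.3 FPKM in WT, a log2 ratio of -0.93 (-1.19 to -0.68). 9030617O03Rik, now Dglucy, the mitochondrial D-glutamate cyclase, had 4.49 FPKM in MLL4SET-MKO and 8.09 FPKM in WT. 2900026A02Rik, with the synonym Kiaa1671, had 7.48 FPKM in MLL4SET-MKO and 12.6 FPKM in WT. These genes lie on different chromosomes. 3110057O12Rik, now Abhd18, had 3.54 FPKM in MLL4SET-MKO and 6.09 FPKM in WT in the called row, while its second row had 0.347 FPKM in MLL4SET-MKO and 0.728 FPKM in WT with q = 0.28 in the authors' deposited table. Gm572 had 2.71 FPKM in MLL4SET-MKO and 4.94 FPKM in WT, and 2310030G06Rik had 0.934 FPKM in MLL4SET-MKO and 2.13 FPKM in WT.

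Long non-coding RNAs made up the other 4 of the 12 largest called decreases. 9530020I12Rik had 1.36 FPKM in MLL4SET-MKO and 4.32 FPKM in WT, a log2 ratio of -1.66 (-2.20 to -1.13). A330074K22Rik had 0.662 FPKM in MLL4SET-MKO and 1.72 FPKM in WT. It lies on chromosome 8 at positions 120199272 to 120228230, a short way beyond 6430548M08Rik at 120114152 to 120165307. By the loci of the authors' table, the named tested gene nearest to both is Zdhhc7, a palmitoyltransferase. Fam92b, listed at 0 in both groups, lies between them and was not tested. Zdhhc7 had 15.3 FPKM in MLL4SET-MKO and 16.1 FPKM in WT and was not called. 4930511M06Rik had 0.386 FPKM in MLL4SET-MKO and 1.32 FPKM in WT, and shares its locus with 2 other clone-named rows. Gm5091 had 0.555 FPKM in MLL4SET-MKO and 1.50 FPKM in WT. Under the normal deviate, 17 of these 24 largest changes kept their call, 10 of 12 increases and 7 of 12 decreases. The calls lost were those of 2810032G03Rik, 1700056E22Rik, 3110009E18Rik, 4930511M06Rik, 2310030G06Rik, Gm5091 and 3110057O12Rik.

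The other called members moved less. Of 32, 17 rose by 0.26 to 0.78 and 15 fell by 0.27 to 0.60 in the log2 change. They include the protein-coding 5031439G07Rik, with 83.1 FPKM in MLL4SET-MKO and 61.5 FPKM in WT, and 2310002L09Rik, with 67.7 FPKM in MLL4SET-MKO and 93.3 FPKM in WT, which were the most abundant called members. Several have since been renamed. Gm608, now Usf3, a basic helix-loop-helix protein, had 10.6 FPKM in MLL4SET-MKO and 14.9 FPKM in WT. 4931406P16Rik, now Garre1, a Rac1 effector, had 10.4 FPKM in MLL4SET-MKO and 14.4 FPKM in WT. 2310047M10Rik, now Borcs6, a subunit of the complex that positions lysosomes, had 17.0 FPKM in MLL4SET-MKO and 12.3 FPKM in WT. 2900055J20Rik, which RefSeq places within Kctd16, had 0.523 FPKM in MLL4SET-MKO and was listed at 0 in WT, so no fold is given, while the row of Kctd16 itself had 0.475 FPKM in MLL4SET-MKO and 0.0515 FPKM in WT and was not called.

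By type, 261 members were protein-coding, 273 long non-coding and 25 pseudogenes in RefSeq, and 3 had no match. Among the protein-coding members 16 rose and 14 fell (11.5% called), and among the long non-coding ones 14 rose and 11 fell (9.16%). The median level was 4.78 FPKM for protein-coding and 1.26 FPKM for long non-coding members. Both pseudogenes called, Gm12070 and Gm3893, fell, and reads of a pseudogene can be shared with its parent gene. Gm rows were called in 13.2% and Rik rows in 9.30%. A later name was held by 125 members, of which 6 rose and 6 fell.

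A wider gap separated members with a locus of their own from members whose locus the authors' table gives to several rows. Of 345 with their own locus, 26 rose and 24 fell (14.5%). Of 217 with a shared locus, 4 rose and 3 fell (3.23%), with a median standard error of 0.48 against 0.21. The same split over all tested rows is not given, so whether the gap is particular to Gm and Rik genes was not tested. Positions were taken from GENCODE M21 and judged only against protein-coding genes whose symbol is that of a named tested gene. A member without overlap in this sense can still overlap other genes. Of 162 members that lie antisense over another gene 1 rose and 1 fell (1.23%), of 77 divergent members, whose start lies within 1 kb of the start of a gene on the other strand, 5 rose and 5 fell (13.0%), and of 290 without overlap 20 rose and 21 fell (14.1%). Of 7 that overlap a gene on the same strand 2 rose, and of 26 without a strand in GENCODE 2 rose, with none called lower in either class. The sources used here do not say whether strand entered the quantification, so reads of overlapping antisense pairs cannot be told apart.

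**Figure D3:**
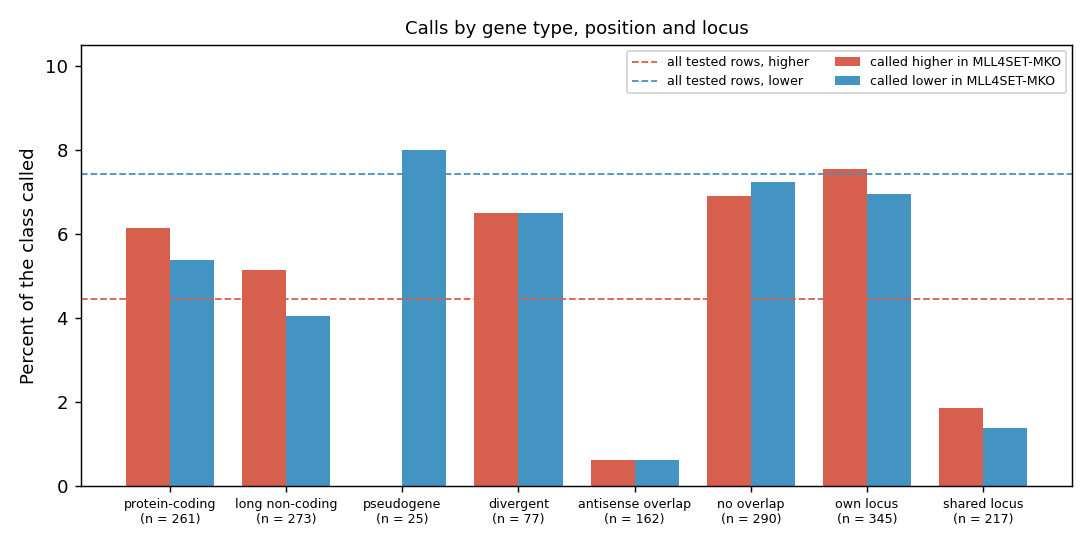
Percent of each class of Gm and Rik genes called higher (red bars) and lower (blue bars) in MLL4SET-MKO, with the number of tested members under each class. Dashed lines give the same shares over all tested rows (4.44% higher, 7.41% lower); of the classes drawn, members that lie antisense over another gene and members with a shared locus have the lowest shares.

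Each called member was set beside the named tested gene at the same locus or, failing that, the nearest one, with distances taken between the loci of the authors' table. For 34 of 57 (59.6%) the neighbour's value differed in the same direction, against 56.6% over all members and 57.6% over called named genes. For 2 called members, 3110057O12Rik and A330074K22Rik, GENCODE places the start of another gene closer (Mfsd8 and Gse1), and with these as neighbours the count was 35 of 57. The neighbour was itself called for 13 of 57 (22.8%), against 12.5% of all members and 14.6% of called named genes. Of these 13 pairs 9 moved in the same direction and 4 in opposite directions. Among called named genes with a called neighbour, 70.2% of 198 moved in the same direction. These shares are descriptions and their differences were not tested.

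The pair with the largest change was C130080G10Rik and Actc1, on chromosome 2. C130080G10Rik lies at 114054310 to 114063040 and starts close to Actc1, which is read the other way and encodes cardiac actin, the sarcomeric actin of heart and of developing or regenerating skeletal muscle. Actc1 had 1488 FPKM in MLL4SET-MKO and 552 FPKM in WT and was called higher. The skeletal actin gene Acta1, a close relative that encodes the main actin of adult muscle, has a failed estimate in the table. Whether this bears on the value of Actc1 was not tested. On the far side of C130080G10Rik, Aqr, a spliceosome helicase, had 4.68 FPKM in MLL4SET-MKO and 5.09 FPKM in WT, and Zfp770 had 9.54 FPKM in MLL4SET-MKO and 10.6 FPKM in WT. Neither was called.

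2310065F04Rik, chosen for description after its values had been seen, is the long non-coding RNA with the synonym linc-Myh and lies in the cluster of fast, embryonic and neonatal myosin heavy chain genes on chromosome 11, at 67112443 to 67120829. It had 73.6 FPKM in MLL4SET-MKO and 42.6 FPKM in WT, a log2 ratio of 0.79 (0.54 to 1.05), and was called. Around it, Myh3, embryonic myosin, had 1.23 FPKM in MLL4SET-MKO and 0.402 FPKM in WT, and Myh8, neonatal myosin, had 2.35 FPKM in MLL4SET-MKO and 0.495 FPKM in WT. Both were called higher, at levels far below those of the adult genes. Myh2, the myosin of type IIa fibres, had 369 FPKM in MLL4SET-MKO and 428 FPKM in WT, and Myh1, that of type IIx fibres, had 772 FPKM in MLL4SET-MKO and 692 FPKM in WT. Neither was called. Myh13, extraocular myosin, was called lower, with 0.361 FPKM in MLL4SET-MKO and 0.673 FPKM in WT, and Myh4, the myosin of type IIb fibres, had a failed estimate.

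**Figure D4:**
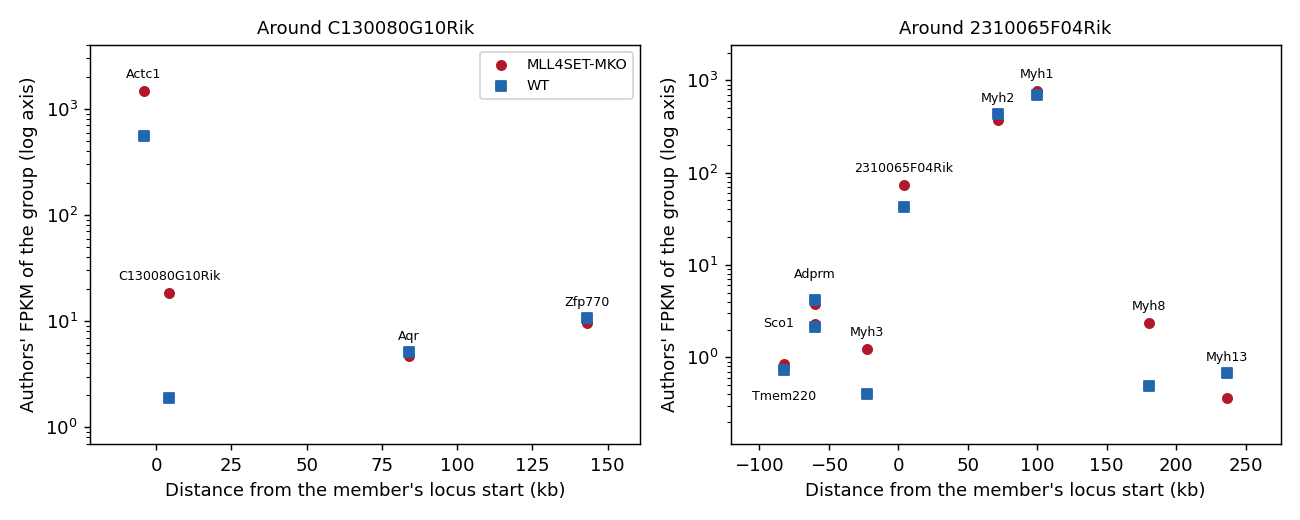
Authors' FPKM of each group on a log axis for the tested genes around C130080G10Rik (left) and 2310065F04Rik (right), against the distance in kb of the middle of each locus from the start of the member's locus. Red circles are MLL4SET-MKO and blue squares WT; the groups stand apart for C130080G10Rik and Actc1 and for 2310065F04Rik, Myh3, Myh8 and Myh13, and lie close together for Aqr, Zfp770, Myh1 and Myh2.

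In 3 further pairs the member and its neighbour both rose. 4930556M19Rik starts beside Rai14, an actin-binding protein, which had 4.31 FPKM in MLL4SET-MKO and 1.90 FPKM in WT. 1700056E22Rik overlaps Dusp10, a phosphatase of stress kinases, which had 18.6 FPKM in MLL4SET-MKO and 11.8 FPKM in WT. That overlap is by GENCODE, while the loci in the authors' table lie 0.463 kb apart. E030003E18Rik lies 45.6 kb from Aldh1a1, which makes retinoic acid and had 81.0 FPKM in MLL4SET-MKO and 40.7 FPKM in WT.

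In 4 pairs both fell. A730036I17Rik, at 0.0431 FPKM in MLL4SET-MKO and 0.576 FPKM in WT, lies near Slc20a1, a phosphate transporter with 7.52 FPKM in MLL4SET-MKO and 14.01 FPKM in WT. A530013C23Rik, at 0.840 FPKM in MLL4SET-MKO and 1.69 FPKM in WT, lies beside Cebpb, a bZIP transcription factor with 69.1 FPKM in MLL4SET-MKO and 91.5 FPKM in WT. Usf3 lies near Naa50, an acetyltransferase with 88.7 FPKM in MLL4SET-MKO and 124 FPKM in WT. Gm14827, at 0.220 FPKM in MLL4SET-MKO and 0.469 FPKM in WT, lies 25.6 kb from Apoo. Apoo encodes a protein of the mitochondrial inner membrane and had 114 FPKM in MLL4SET-MKO and 151 FPKM in WT. The non-coding partners in these pairs were at or under 1.69 FPKM in both groups.

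In the other 4 pairs the directions differed. 4930511M06Rik fell, while Ctxn3 had 48.8 FPKM in MLL4SET-MKO and 25.7 FPKM in WT and rose. This pair overlaps antisense in GENCODE, while its loci in the authors' table lie 55.7 kb apart. The 3 others combined a member that rose with a neighbour that fell. Klhl29, beside 2810032G03Rik, had 1.27 FPKM in MLL4SET-MKO and 1.79 FPKM in WT. Mllt6, 33.6 kb from Epop, had 11.7 FPKM in MLL4SET-MKO and 15.6 FPKM in WT. Zfp930, 138 kb from Gm10033, had 1.82 FPKM in MLL4SET-MKO and 3.02 FPKM in WT. Gm10033 itself had 4.18 FPKM in MLL4SET-MKO and 2.89 FPKM in WT.

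**Figure D5:**
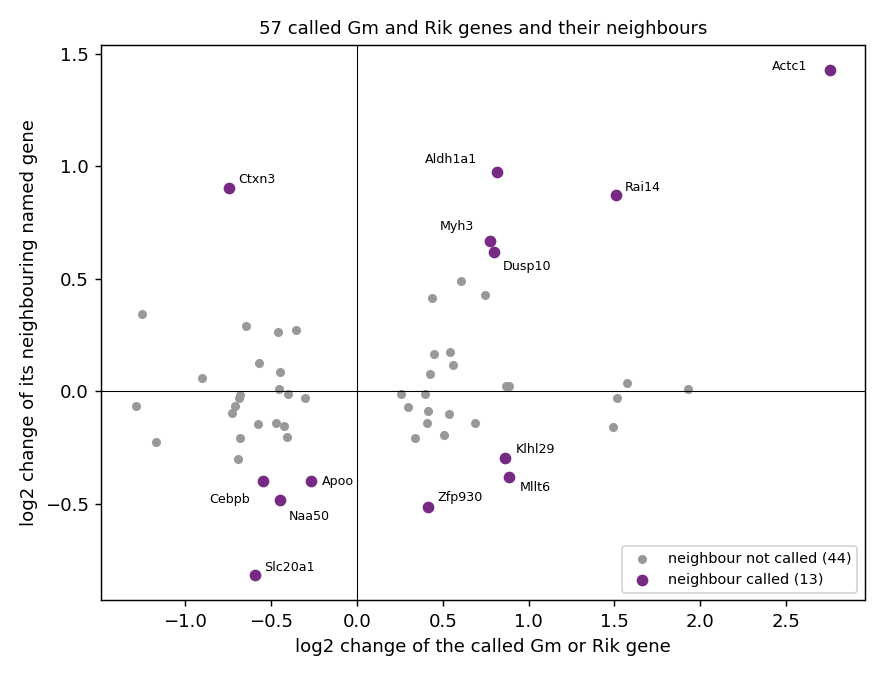
Log2 change of the nearest named tested gene against that of the Gm or Rik gene, for the 57 called members, both as log2((MLL4SET-MKO FPKM + 1)/(WT FPKM + 1)). Purple points mark the 13 neighbours that were called, with their symbols, and grey points the 44 that were not; 9 purple points lie in the quadrants of equal direction, with Actc1 farthest out.

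Over the 77 divergent pairs, 44 differed in the same direction, with a Spearman correlation of 0.28 between the changes across pairs, which share libraries and are not independent. Over the 162 antisense pairs 96 differed in the same direction (Spearman correlation 0.20, across pairs that can share reads). Where an antisense member overlapped several genes, only the first in alphabetical order was taken as its partner. Among the divergent pairs 10 members and 6 partners were called, and both were called in 3, those with Actc1, Rai14 and Klhl29. The pair with Actc1 is divergent by the starts in GENCODE, while its loci in the authors' table lie 1.21 kb apart. The other 7 called divergent members stood beside a partner that was not called. 3110009E18Rik fell while Dbi, the acyl-CoA binding protein that starts beside it, had 139 FPKM in MLL4SET-MKO and 110 FPKM in WT (q = 0.064 in the authors' deposited table). 2310022A10Rik fell beside Pld3, with 8.85 FPKM in MLL4SET-MKO and 8.46 FPKM in WT, and A330074K22Rik fell beside Gse1, with 6.16 FPKM in MLL4SET-MKO and 7.46 FPKM in WT.

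Among the antisense pairs 21 partners and 2 members were called. Where the partner was called, the member differed in the same direction in 12 of 21. Because 1 partner was taken per member, called genes that a member also overlaps can be missing from these counts. Gm13031 lies antisense to Padi2, a peptidyl arginine deiminase with 4.72 FPKM in MLL4SET-MKO and 51.8 FPKM in WT. It had 0.221 FPKM in MLL4SET-MKO and 0.660 FPKM in WT, with q = 0.76 in the authors' deposited table. 1700113A16Rik lies antisense to Mef2d, a muscle transcription factor with 45.1 FPKM in MLL4SET-MKO and 74.8 FPKM in WT. It had 8.70 FPKM in MLL4SET-MKO and 13.2 FPKM in WT and was not called.

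The members of highest level were not called. 2010107E04Rik, now Atp5mpl, a small subunit of the mitochondrial ATP synthase, had 840 FPKM in MLL4SET-MKO and 742 FPKM in WT, with a log2 ratio of 0.18 (-0.07 to 0.43). A630019I02Rik had 215 FPKM in MLL4SET-MKO and 262 FPKM in WT, but it lies antisense within the locus of Cmya5, a large muscle protein, and its ratio was imprecise (-1.17 to 0.60). 1700020I14Rik, the conserved long non-coding RNA Oip5os1 or Cyrano, had 186 FPKM in MLL4SET-MKO and 211 FPKM in WT. The next were 2410127L17Rik, now Carnmt1, the carnosine methyltransferase, with 160 FPKM in MLL4SET-MKO and 174 FPKM in WT, and 1110001J03Rik, now Fmc1, an ATP synthase assembly factor, with 133 FPKM in MLL4SET-MKO and 127 FPKM in WT. 4833439L19Rik, which shares its locus with Simc1, had 116 FPKM in MLL4SET-MKO and 136 FPKM in WT. 2900097C17Rik, now Norad, a long non-coding RNA that binds Pumilio proteins, had 124 FPKM in MLL4SET-MKO and 110 FPKM in WT, and 2310040G24Rik had 104 FPKM in MLL4SET-MKO and 103 FPKM in WT. Apart from A630019I02Rik, the 8 genes of highest level had intervals of the log2 ratio that reached no farther than -0.47 or 0.43, so a 2-fold difference lies outside them.

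A list of 8 genes known for small proteins or conserved RNAs had 7 tested members. Of these 0 were called and 0 passed with the normal deviate, against 11.8% and 3.11% of all tested rows. With 7 members, such counts cannot be set apart from those shares. Only 1 of the 7 had an unadjusted p under 0.05. That gene was Gm7325, now Mymx, the micropeptide that drives fusion of myoblasts. It had 0.959 FPKM in MLL4SET-MKO and 0.124 FPKM in WT, a log2 ratio of 2.95 with a wide interval of 0.62 to 5.27 and q = 0.080 in the authors' deposited table. The mitochondrial micropeptide genes lay far above it: 1500011K16Rik (Mtln) had 87.8 FPKM in MLL4SET-MKO and 91.5 FPKM in WT, 2410015M20Rik (Micos13) had 55.6 FPKM in MLL4SET-MKO and 48.6 FPKM in WT, and 1810058I24Rik (Stmp1) had 34.0 FPKM in MLL4SET-MKO and 33.5 FPKM in WT. 1500012F01Rik, the RNA Zfas1, had 11.6 FPKM in MLL4SET-MKO and 9.63 FPKM in WT and shares its locus with Znfx1. Atp5mpl and Oip5os1, described above, complete the tested members.

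Kmt2d, the gene whose SET domain was targeted, had 5.65 FPKM in MLL4SET-MKO and 8.77 FPKM in WT, a log2 ratio of -0.64 (-0.89 to -0.38), and was called lower. This gene-wide level cannot resolve the deleted exons. Within 5 Mb of Kmt2d on chromosome 15 there were 4 members. Of these 0 were called and 0 passed with the normal deviate, against 11.8% and 3.11% of all tested rows. With 4 members, such counts cannot be set apart from those shares. Only 1 of the 4 had an unadjusted p under 0.05. That one, C330013E15Rik, had 1.21 FPKM in MLL4SET-MKO and 0.493 FPKM in WT (q = 0.11 in the authors' deposited table).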

How the data were processed

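RNA of 3 MLL4SET-MKO and 3 WT gastrocnemius samples was sequenced after library preparation with NEBNext Ultra reagents, per the labels' protocols. Alignment and quantification tools named in the submitters' processing notes are TopHat2 2.0.14 and Cufflinks 2.2.1, beside bcl2fastq and FastQC 0.11.3, with the build mm10 (GRCm38). The sources used here do not state the annotation, the scaling between libraries or the use of strand. The authors deposited 1 table in the layout of Cuffdiff, per the file headers, with an FPKM per group. Beside it stand the authors' deposited test statistic, a score, and the p-value and q-value of their test.

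No value of a single library was used, so n and SD are not given and p-values rest on the authors' model of the spread. A row was called at q under 0.05. Benjamini-Hochberg adjustment of the deposited p-values over the 13347 tested rows matched the q-values within 7.17e-05. Changes use a pseudocount of 1 FPKM, which understates the change of low genes. Standard errors and 95% intervals of the log2 ratio were worked back by taking 1.73 times the deposited statistic as a normal deviate, the median factor between the deposited p-values and that statistic. For 3 of 561 members the interval excludes 0 at a deposited p of 0.05 or more (for 4833412C05Rik the authors' deposited p is 0.245), and for 1 it holds 0 at a smaller p. The arithmetic was run on simulated data built with the same normal model, so that run cannot show whether the model holds for the deposited statistic.

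RefSeq (GRCm38.p6) gave current names and gene types, matching 433 members by symbol and 126 by synonym at the same locus, and GENCODE M21 gave strand and position for 536. Named genes are the 12 called members with the largest change each way and at least 1 FPKM in the higher group, the 8 of highest level, a list of small proteins, called members within 5 Mb of Kmt2d, called members listed at 0 in 1 group, and the neighbours of these. Others named were chosen after their values were seen. The members and lists were chosen with earlier results of these data known. Alternatives were another reading of the statistic, a stricter q, a 2-fold rule, other pseudocounts, centring, a filter at 1 FPKM, only members with their own locus, and neighbours within 10 kb. Python 3.11.15 was used with pandas 2.3.3, numpy 2.4.6, scipy 1.17.1 and matplotlib 3.10.9.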

Additional observations from a re-analysis of the deposited data

How the results depend on the processing

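No paired analysis was possible because the deposited values are 1 FPKM per group, and for the same reason no replicate could be left out. With the authors' statistic read as a plain normal deviate, 19 members were called in place of 57, 8 long non-coding in place of 25 and 11 protein-coding in place of 30, while 3.11% of all rows with a statistic passed. Kmt2d then kept its change of -0.56 without passing (q = 0.13). A change of at least 2-fold was reached by 11 members, 7 long non-coding, 4 protein-coding and 1 within 5 Mb of Kmt2d. The median change of 0.00 became 0.0330 after centring on all tested rows of at least 1 FPKM. The share of called members whose neighbour differed in the same direction was 75% for the 20 with a neighbour within 10 kb, against 56.0% of 375 such members in all and 59.9% of 651 such called named genes. With the divergent partner in GENCODE as neighbour, an alternative chosen after seeing the data, it was 61.4%. Counts stayed within 1.5 times at a stricter q (39), at 1 FPKM or more (47), with an own locus (50) and with rows of several symbols added (57). Of 24 called members named by rule with a numeric statistic, 7 lost their call under the normal deviate, and pseudocounts and centring, which cannot alter the authors' q, reversed no direction among 25. Read depth is unknown, and members under 1 FPKM had a median standard error of 0.51.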

Other observations

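Of the 11 members that differed at least 2-fold in the log2 change, 9 were called and 2 were not, both at a locus shared with other genes. B230312C02Rik shares its locus with Mir1a-1 and Mir133a-2, microRNAs of muscle, and with Gm6307. It had 7.26 FPKM in MLL4SET-MKO and 2.42 FPKM in WT, with q = 0.22 in the authors' deposited table. 1700120C14Rik lies antisense to Mcrs1, near Kmt2d, and had 1.03 FPKM in MLL4SET-MKO and 5.22 FPKM in WT. The authors' deposited table gives it q = 0.57. Of 171 members that share a locus with a named tested gene, 1 was called. That member, E130112N10Rik, shares the locus of Tapbpl and Cd27 and had 2.62 FPKM in MLL4SET-MKO and 1.15 FPKM in WT. The matching share over all tested rows with a shared locus is not given.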
